A study of Mus musculus with 35 samples.

Results

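The genes described here are 4 keratins of stressed and wounded epidermis, Krt6a, Krt6b, Krt16 and Krt17. They were taken by gene symbol, each matched 1 row, and they are 4 of the 36106 genes and 4 of the 55 keratin genes in the deposited count table. The 35 bulk RNA-seq libraries came from the skin of 19 female C57BL/6J mice, an inbred strain, aged 10 weeks at the start. Radiated samples (n = 4 in each of weeks 1, 2, 3 and 4) came from left flank skin that had received 25 Gy at 3.6 Gy per min over 420 seconds. Control samples (n = 4 in each of the same weeks) are labelled only as control, and the labels do not give their body site. Sham samples (n = 3) came from mice given no radiation, and the labels do not give their time of sampling. Shaving of the treated flank after radiation is described, and shaving of control or sham skin is not. Radiation, body site and shaving therefore cannot be told apart in the radiated against control comparison.

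Keratins build the intermediate filaments of epithelial cells, and each filament pairs a type II with a type I keratin. Krt6a and Krt6b encode type II keratins, and Krt16 and Krt17 encode their type I partners. In resting epidermis between the hair follicles these genes are little used, since that tissue relies on Krt5 with Krt14 in the basal layer and Krt1 with Krt10 above it. After injury or inflammation keratinocytes switch the 4 genes on, and the appendages keep a basal supply: the follicle's outer root sheath and companion layer make Krt6a, Krt16 and Krt17 without any wound.

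The genes lie in 2 clusters, and all 4 are on the minus strand in GRCm38 (GENCODE M21 annotation). Krt6a (ENSMUSG00000058354) is at chr15:101689910-101694307, and Krt6b (ENSMUSG00000023041) follows it at chr15:101676023-101680287. Krt16 (ENSMUSG00000053797) is at chr11:100246091-100248902 beside Krt17 (ENSMUSG00000035557) at chr11:100256217-100261029. Both type II genes have 9 exons and both type I genes have 8.

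Krt6a and Krt6b are near-identical copies, which bears on how well their reads can be told apart. Their coding sequences (1662 and 1665 bases) were 97.8% identical over 1662 aligned bases, with 37 differing bases and an identical run of 280 bases. Of the 31-base words of each transcript, the unit by which kallisto assigns reads, 33.4% occurred in no other gene for Krt6a and 43% for Krt6b. The stretch that differs most is 90 bases of exon 4, coding positions 787 to 876 (chr15:101692484-101692573 in Krt6a and chr15:101678303-101678392 in Krt6b). It is shown because reads from it separate the copies, and the 12 differing bases are in capitals.
Krt6a: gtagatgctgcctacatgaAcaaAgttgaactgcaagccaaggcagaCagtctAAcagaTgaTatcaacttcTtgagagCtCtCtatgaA
Krt6b: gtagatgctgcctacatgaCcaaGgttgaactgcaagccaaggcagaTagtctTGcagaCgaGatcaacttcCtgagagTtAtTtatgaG
By contrast, coding positions 34 to 123 in exon 1 read the same in both (chr15:101694126-101694215 and chr15:101680101-101680190), so a read from there fits either gene.
Krt6a and Krt6b: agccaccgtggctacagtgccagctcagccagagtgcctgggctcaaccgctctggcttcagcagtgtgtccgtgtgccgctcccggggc

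The type I genes are less alike, at 77.5% identity over 1286 aligned coding bases. Krt17 had 84.2% of its 31-base words to itself and Krt16 had 48.1%. Krt16 shared 32.2% with Gm11597, which was at most 1.42 CPM (counts per 1000000, scaled as described below), and 19.7% with Krt14, a basal keratin at 1046 to 10238 CPM. The 90 bases of exon 5 in which Krt16 (chr11:100247136-100247225) and Krt17 (chr11:100257777-100257866) differ most are shown with the 30 differing bases in capitals.
Krt16: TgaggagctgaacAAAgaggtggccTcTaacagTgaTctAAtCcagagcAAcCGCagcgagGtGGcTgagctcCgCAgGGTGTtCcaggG
Krt17: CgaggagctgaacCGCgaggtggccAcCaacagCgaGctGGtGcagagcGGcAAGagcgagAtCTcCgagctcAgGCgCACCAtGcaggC

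The labelled tissue was checked against 8 keratinocyte markers, all of them above 0 in every sample, with summed levels between 7243 and 37476 CPM. Levels below are CPM on library sizes scaled by TMM (trimmed mean of M values). Library totals ran from 17362853 to 28487885 counts, and the lowest count of any of the 4 genes was 11, for Krt6b in a control sample. The samples are whole skin, so fewer cells of a type and less RNA per cell cannot be told apart. Fold changes are from edgeR's quasi-likelihood test, and a gene was counted as changed at a Benjamini-Hochberg adjusted p under 0.05 over all genes tested.

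Krt6a, the more abundant type II copy in unwounded skin, was high in all radiated samples of weeks 3 and 4. In week 4 the radiated samples (replicates 1 to 4) had 3127, 3722, 4009.9 and 4209.8 CPM and the control samples 119, 161, 151 and 156. The week before, they had 2195, 2283, 5163 and 3355 CPM against 439, 351, 447 and 316 in control skin. In both weeks every radiated sample lay above every control and every sham sample, the sham samples being at 128, 883 and 264 CPM. Earlier the radiated samples were scattered. Week 1 gave 93.1, 3673, 1387 and 421 CPM against 144, 252, 257 and 209.6 in control skin, and week 2 gave 429, 437, 632 and 4382 against 279, 229, 254 and 438. The groups overlapped both times.

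Krt6b, the second copy, was close to the lower limit of measurement outside radiated skin. Week by week, control samples had 1.12, 1.04, 1.10 and 1.43 CPM (week 1), 4.70, 1.03, 0.786 and 18.0 (week 2), 0.810, 1.35, 14.8 and 0.628 (week 3) and 1.69, 1.81, 1.37 and 1.46 (week 4). Sham skin had 3.13, 8.41 and 1.24 CPM. Radiated skin was far higher in week 3 (409, 900, 3574 and 2635 CPM) and in week 4 (2803, 3116, 1921 and 2349.7 CPM). In week 1 the radiated samples had 3.07, 3348, 1098 and 56.8 CPM, all above the highest control sample, and in week 2 they had 5.53, 2.69, 26.0 and 3022, which overlapped with the control samples.

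Krt16, the type I keratin most used as a sign of the wound state, had the highest median of the 4 genes in radiated skin of weeks 3 and 4, and a lower one than Krt6a in every other group. Radiated skin had 1626, 2515, 5642 and 6894 CPM in week 3, against 93.7, 179.7, 129.9 and 82.5 in control skin. In week 4 it had 4611, 5930.1, 3379 and 4592 CPM, against 31.1, 22.8, 13.8 and 12.8. Neither week showed an overlap with control or with sham skin, which had 20.5, 271 and 63.2 CPM. In week 1 radiated skin had 16.7, 6482, 1616 and 129.7 CPM and control skin 14.8, 26.9, 42.2 and 18.6. In week 2 radiated skin had 91.1, 134, 160.3 and 5163 CPM and control skin 150.1, 32.3, 60.9 and 345. The radiated samples that were high for Krt6a in weeks 1 and 2 were the same ones that were high for Krt16 and Krt6b: replicates 2 and 3 in week 1, and replicate 4 in week 2.

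Krt17, a type I keratin that the hair follicle also makes, moved over a much smaller range. In week 1 radiated skin had 246, 819.5, 769.6 and 362 CPM against 352, 246, 248 and 258 in control skin. In week 2 the values were 236, 211, 496 and 1138 CPM against 328, 256, 215 and 184. Single samples stood out in these weeks, as for the other 3 genes. In week 3 they were 283, 395, 579 and 439 CPM against 294, 212, 258 and 307, and in week 4 they were 387, 625, 735 and 501 against 401, 308, 387 and 330.5. Radiated and control ranges overlapped in all 4 weeks. Sham skin had 287, 816 and 511 CPM, and no radiated sample of weeks 3 or 4 was above its highest sample.

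**Figure D1:**
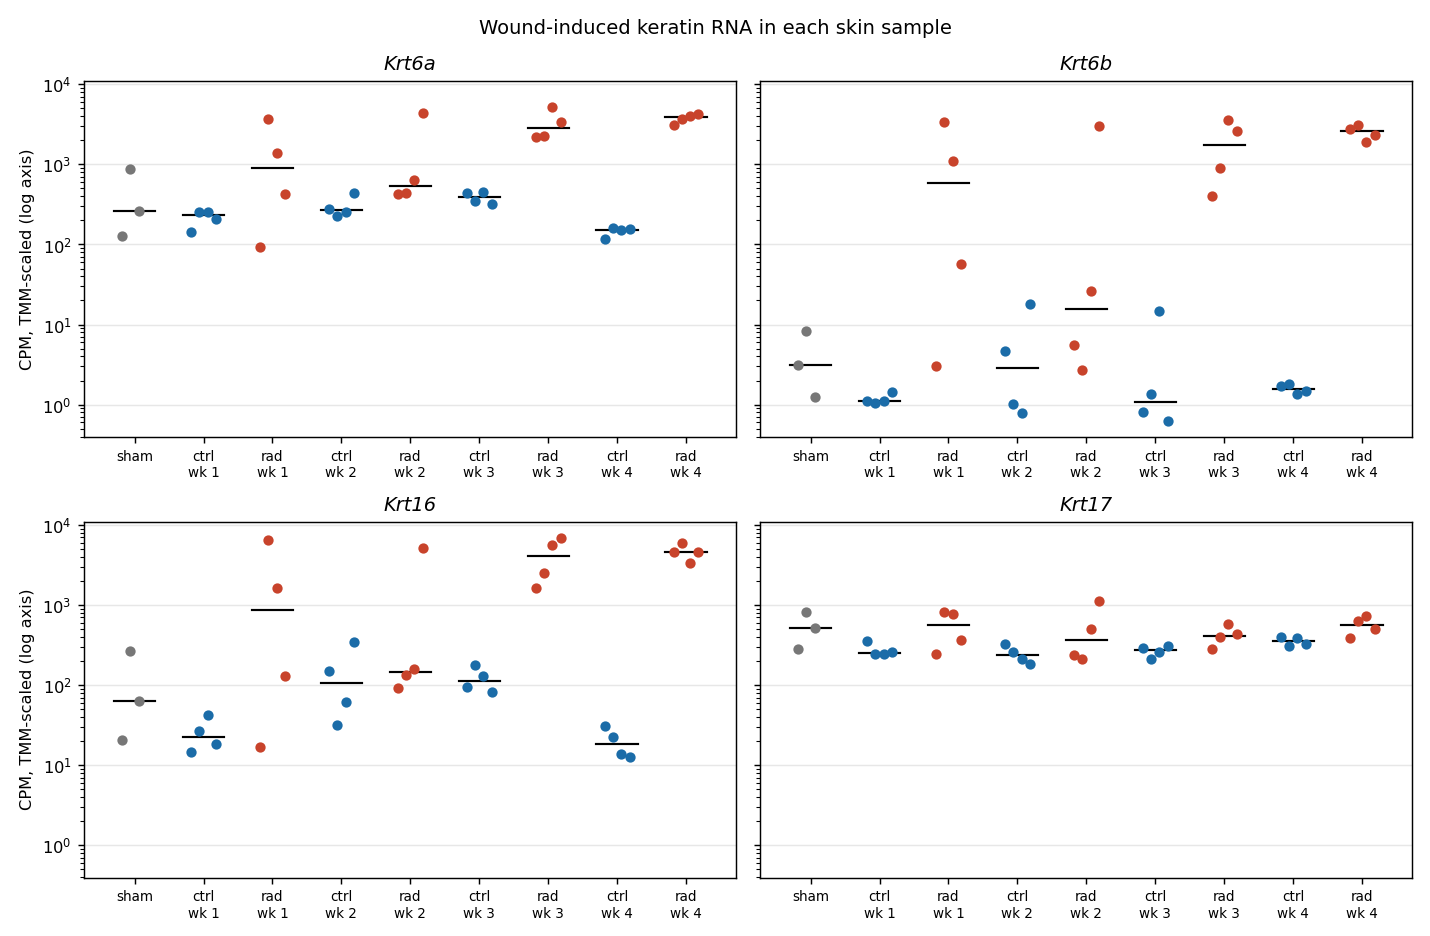
CPM (TMM-scaled, log axis) of Krt6a, Krt6b, Krt16 and Krt17 in each of the 35 samples, with sham in grey, control in blue, radiated in red and a line at each group's median. Krt6a, Krt6b and Krt16 are high in all radiated samples of weeks 3 and 4 and in 1 or 2 samples of the earlier weeks, while Krt17 stays between 184 and 1138 CPM throughout.

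Ordered by group median, Krt6a, Krt6b and Krt16 had the same first 4 groups: radiated week 4 (3866, 2576 and 4602 CPM), radiated week 3 (2819, 1767 and 4078), radiated week 1 (904, 578 and 873) and radiated week 2 (534, 15.8 and 147). Each group's range overlapped with that of the next in this order. Krt17 was ordered differently, with radiated week 1 (566 CPM), radiated week 4 (563) and sham (511) at the top, and the neighbours in its order overlapped except control week 4 (359) above control week 3 (276).

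In weeks 3 and 4 all 4 keratins rose in radiated against control skin. In week 4 Krt6b rose by 10.66 on the log2 scale (SE 0.231, adjusted p = 1.49e-08), Krt16 by 7.86 (SE 0.375, adjusted p = 1.4e-06) and Krt6a by 4.69 (SE 0.150, adjusted p = 2.2e-07). These are 1616-fold, 232-fold and 25.8-fold changes. Krt17 rose by 0.66 (SE 0.183, adjusted p = 0.0137), which is 1.58-fold. That call was lost in 1 fit of all 35 samples (adjusted p = 0.2). The background in that week was wide: 48.4% of 17850 genes passed in either direction and 24.2% were higher. A radiated range wholly above the control range was found for 3 of the 4 keratins and for 22.9% of all genes. By size of fold, Krt6b ranked 2nd, Krt16 34th, Krt6a 136th and Krt17 3593rd of the 17850 genes.

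In week 3 Krt6b rose by 8.75 (SE 1.35, adjusted p = 0.00257), Krt16 by 5.12 (SE 0.527, adjusted p = 0.00077) and Krt6a by 3.09 (SE 0.306, adjusted p = 0.000732). Krt17 rose by 0.69 (SE 0.218, adjusted p = 0.0419). Of 17654 genes, 27.2% passed, 13.6% were higher and 14.4% had a radiated range wholly above the control range, as 3 of the 4 keratins did. The Krt17 call was near the threshold: with the mouse as a block it was 0.66 with an adjusted p of 0.0763, it passed in 1 of the 8 fits that each left out 1 sample, and its adjusted p was 0.2 in 1 fit of all 35 samples. In the 4 same-numbered pairs of a week, Krt17 was higher on the radiated side in 3 of 4 in weeks 3 and 4, and was 0.962-fold and 0.966-fold in the pair numbered 1. Krt6a, Krt6b and Krt16 were higher in 4 of 4 pairs in both weeks.

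In week 1 none of the 4 keratins passed in edgeR, nor did any of the 17578 genes (0% called). At an unadjusted p under 0.05 all 4 keratins and 14.1% of genes were called. The fitted changes were 9.91 for Krt6b (SE 1.84, adjusted p = 0.171), 6.34 for Krt16 (SE 1.47, adjusted p = 0.189), 2.70 for Krt6a (SE 0.823, adjusted p = 0.24) and 1.00 for Krt17 (SE 0.343, adjusted p = 0.266). Levels were highest in replicates 2 and 3. In the same-numbered pairs 1 and 4, Krt6b was 2.75-fold and 39.75-fold, and Krt16 was 1.125-fold and 6.96-fold. Krt6a was 0.649-fold and 2.01-fold there, and Krt17 was 0.700-fold and 1.40-fold. The summed neutrophil markers were 14.4, 89.9, 35.7 and 11.8 CPM in radiated replicates 1 to 4, and their part was not tested. S100a8 and S100a9 are among these 5 markers and also in the list of activated-keratinocyte genes given below. With the mouse as a block the changes were 7.57 for Krt6b (adjusted p = 0.183), 4.06 for Krt16 (adjusted p = 0.25), 1.69 for Krt6a (adjusted p = 0.309) and 0.86 for Krt17 (adjusted p = 0.329). Single samples moved the test both ways. Without radiated replicate 1, in which Krt6a, Krt16 and Krt17 were not above the control samples, the adjusted p was 0.00649 for Krt6b, 0.017 for Krt16 and 0.0276 for Krt6a. Without control replicate 4 it was 0.516, 0.516 and 0.52. DESeq2 called 2 of the 4, Krt6b and Krt16, and 2.56% of its genes. The radiated range lay wholly above the control range for Krt6b alone of the 4, and for 3.49% of all genes.

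In week 2 edgeR again called 0 of the 4 keratins and 0.00577% of 17345 genes, with 3 of the 4 and 13.8% at an unadjusted p under 0.05. The fitted changes were 6.99 for Krt6b (adjusted p = 0.226), 3.25 for Krt16 (adjusted p = 0.331), 2.30 for Krt6a (adjusted p = 0.215) and 1.09 for Krt17 (adjusted p = 0.364). Radiated replicate 4 carried much of them. Without it the values were 0.89 for Krt6b, -0.21 for Krt16, 0.72 for Krt6a and 0.34 for Krt17. That fit kept control replicate 4, the highest control sample for Krt6a, Krt6b and Krt16 (438, 18.0 and 345 CPM). In the same-numbered pairs 1 to 4, Krt6a was 1.54, 1.91, 2.485 and 10.0-fold. Krt6b was 1.18, 2.60, 33.1 and 168-fold there, Krt16 0.607, 4.17, 2.63 and 14.95-fold, and Krt17 0.720, 0.822, 2.31 and 6.205-fold. No keratin had its radiated range wholly above the control range, as 3.97% of genes did. DESeq2 called none (3.89% of its genes) and gave no adjusted p for 3 of the 4. With the mouse as a block, edgeR also called 0 of the 4 but 3.7% of genes, with changes of 3.68 for Krt6b (adjusted p = 0.205), 1.67 for Krt16 (adjusted p = 0.244) and 0.73 for Krt17 (adjusted p = 0.482), and an adjusted p of 0.115 for Krt6a.

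Against sham skin, 3 of the 4 keratins rose in weeks 3 and 4. In week 4 Krt6b rose by 9.25 (SE 0.749, adjusted p = 0.000171), Krt16 by 5.32 (SE 0.879, adjusted p = 0.00316) and Krt6a by 3.19 (SE 0.619, adjusted p = 0.00657), where 26.7% of 18373 genes passed and 15.1% were higher. In week 3 the changes were 8.81 (adjusted p = 0.0052), 5.17 (adjusted p = 0.0136) and 2.97 (adjusted p = 0.022), where 18.2% of 18220 genes passed and 10.4% were higher. Without sham replicate 3, Krt16 (adjusted p = 0.0518) and Krt6a (adjusted p = 0.0761) did not pass in week 3. The ranges of these 3 genes lay wholly above sham in both weeks, as did those of 18.5% of genes in week 4 and 15.6% in week 3. Krt17 differed from sham by 0.11 (SE 0.349, adjusted p = 0.852) in week 4 and by -0.30 (SE 0.367, adjusted p = 0.612) in week 3. In weeks 1 and 2 edgeR called 0 of the 4 (1.75% and 5.05% of all genes), with 2 and 1 of the 4 at an unadjusted p under 0.05 (16.6% and 23.6%), and DESeq2 called 1 and 0 (6.61% and 11.8% of its genes), giving no adjusted p for 3 of the 4 in week 2.

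Control skin was also set against the skin of mice given no radiation. edgeR called 0 of the 4 keratins in weeks 1, 2, 3 and 4, where 4.92%, 2.44%, 11.4% and 3.6% of all genes passed. At an unadjusted p under 0.05 it called 3, 1, 1 and 3 of the 4 (27.3%, 21.1%, 29.7% and 22% of all genes), and DESeq2 called 2, 1, 1 and 1 after adjustment (17%, 10.6%, 18.8% and 9.63% of its genes). For Krt17 the control against sham change was at -0.97 (adjusted p = 0.0914), -1.14 (adjusted p = 0.1), -1.02 (adjusted p = 0.061) and -0.60 (adjusted p = 0.282) in weeks 1 to 4, so none passed. These values turned on single sham samples. Without sham replicate 1, the lowest of the 3, the adjusted p was 0.0167, 0.0234, 0.00743 and 0.027. Without sham replicate 2, the highest, the differences shrank to -0.54, -0.69, -0.59 and -0.17, and none passed (adjusted p = 0.694 in week 4). Markers of growing hair follicles moved with the sham samples: the sum of Krt71, Krt25, Krt27, Krt73, Krt35 and Tchh was 2089, 27580 and 33155 CPM in sham replicates 1, 2 and 3, against 8.21 to 6642 in control and 8.53 to 5774 in radiated samples. None of the 6 was at 0 in sham skin. Sham replicate 1 had the lowest follicle sum and the lowest Krt17 of the 3, while replicate 3 had the highest sum and the middle Krt17. Skeletal muscle markers also lay apart, at 5814 to 12557 CPM in sham skin against 22113 to 34852, 24262 to 43134 and 14365 to 29076 in control skin of weeks 1 to 3. In control skin of week 4 they were at 1129.5 to 17300 CPM, which overlapped with sham skin. The part of either set of markers in these values was not tested.

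**Figure D2:**
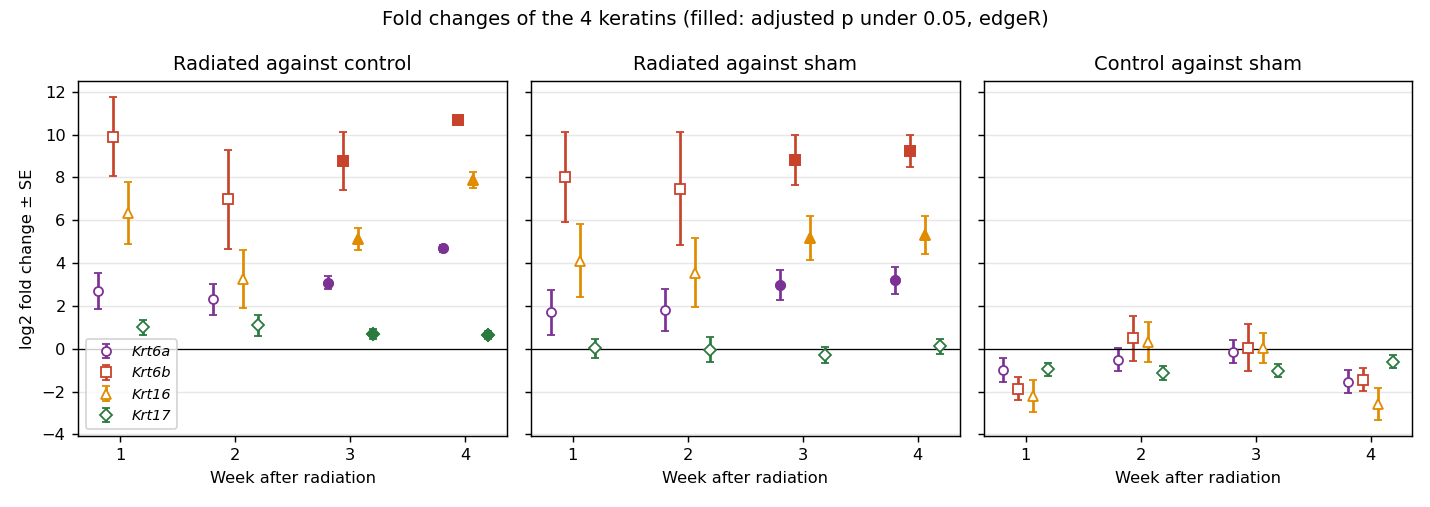
Log2 fold change with its SE for each of the 4 keratins by week after radiation, for radiated against control (left), radiated against sham (middle) and control against sham (right). Filled markers passed at an adjusted p under 0.05 in edgeR; they appear in weeks 3 and 4 only, for 4 keratins against control and for 3 against sham, and the left and middle panels share the radiated samples.

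To see whether the gap between radiated and control skin changed with time, the week by radiation terms were tested in all 16 radiated and 16 control samples together. None of the 4 keratins passed the F test (adjusted p = 0.227 for Krt6a, 0.57 for Krt6b, 0.165 for Krt16 and 0.898 for Krt17), where 15.6% of 19339 genes did. At an unadjusted p under 0.05 edgeR called 1 of the 4, Krt16, and 29.5% of genes, and DESeq2 called 0 after adjustment, with 19.6% of its genes. With the mouse as a block the adjusted p was 0.0192 for Krt6a and 0.0186 for Krt16. Without replicate 4 of every week, which includes the high radiated sample of week 2, it was 0.0402 for Krt6b and 0.015 for Krt16. At the other end it was 0.759 for Krt6b without replicate 2, and 0.413 for Krt16 and 0.551 for Krt6a without replicate 3.

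Within radiated skin, 0 of the 4 keratins passed at any step from a week to the next in edgeR or DESeq2, and none reached an unadjusted p under 0.05 in edgeR (11.1%, 32.5% and 9.92% of all genes at the 3 steps, while DESeq2 called 1.55%, 20.8% and 0.956% of its genes after adjustment). The share of genes that passed was 0.0213% from week 1 to 2, 18% from week 2 to 3 and 0.0373% from week 3 to 4. The step from week 2 to 3 was 1.31 for Krt6b (adjusted p = 0.639) and 1.59 for Krt16 (adjusted p = 0.448), and it depended on single replicate numbers. It was 7.15 (adjusted p = 0.0214) and 4.68 (adjusted p = 0.0317) without replicate 4, the high sample of week 2, and 0.38 (adjusted p = 0.934) and 1.04 (adjusted p = 0.754) without replicate 3.

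Control skin was not flat. Krt16 rose from week 1 to week 2 by 2.53 (SE 0.583, adjusted p = 0.0209), where 5.34% of 18192 genes passed, and the call was lost without any 1 replicate number (adjusted p from 0.0514 to 0.201). From week 3 to week 4 Krt16 fell by 2.62 (SE 0.587, adjusted p = 0.00605) and Krt6a fell by 1.43 (SE 0.214, adjusted p = 0.000527), where 21.2% of genes passed. From week 2 to 3 edgeR and DESeq2 called 0 of the 4, none had an unadjusted p under 0.05 in edgeR (15% of genes), and 1.43% of genes passed in edgeR and 4.54% in DESeq2. The summed leukocyte markers of control skin ranged over 183.6 to 535.5 CPM in week 3 and over 147.1 to 176.5 in week 4, and the medians of fibroblast (5986 and 2761) and skeletal muscle markers (24248 and 8918) were also lower in week 4; their part in the keratin values was not tested. In week 4 control skin thus had the lowest medians of all groups for Krt6a (153 CPM) and Krt16 (18.3 CPM).

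The make-up of each pair is given next as a description, since no test of a ratio passed (lowest adjusted p = 0.0508, exact permutation tests given below). Scaled by transcript length, Krt6b was 0.188% to 4.02% of the Krt6a and Krt6b total in the 16 control samples and 0.476% to 2.44% in sham skin. In radiated skin it was 15.9%, 28.7%, 41.4% and 44.5% in week 3 and 47.7%, 46.0%, 32.8% and 36.3% in week 4. In week 1 it was 3.26%, 48.2%, 44.7% and 12.1%, and in week 2 it was 1.29%, 0.623%, 4.03% and 41.3%, with the high shares in the samples of high level. No radiated sample had more Krt6b than Krt6a per length. The log2 ratio of Krt6b to Krt6a was higher in radiated than in control skin by 5.40, 1.95, 6.56 and 5.93 in weeks 1 to 4. Because nearly identical copies share reads, the split between Krt6a and Krt6b is less certain than their sum. With their counts added together the Krt6 total passed in weeks 3 and 4 as well.

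Among the type I genes, Krt16 was 3.40% to 14.4% of the length-scaled Krt16 and Krt17 total in control skin of weeks 1 and 4, 11.1% to 65.1% in control skin of weeks 2 and 3, and 6.63% to 24.8% in sham skin. In radiated skin it was 85.1% to 94.0% in week 3 and 82.0% to 92.2% in week 4. Week 1 was mixed, at 6.30%, 88.7%, 67.5% and 26.2%, and in week 2 the shares were 27.7%, 38.8%, 24.3% and 81.8%, within or above the control range. The log2 ratio of Krt16 to Krt17 was higher in radiated skin by 3.20, 0.89, 4.31 and 7.29 in weeks 1 to 4.

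Type II and type I transcripts, which pair as proteins, stayed closer to each other. Per length, Krt6a and Krt6b together were 36.1% to 49.9% of the total of the 4 genes in radiated skin of weeks 3 and 4. They were 35.7% to 44.8% in control skin of week 3 and 15.9% to 25.1% in control skin of week 4. The log2 ratio of the type II pair to the type I pair differed between radiated and control skin by 0.13, 0.60, 0.20 and 1.65 in weeks 1 to 4.

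**Figure D3:**
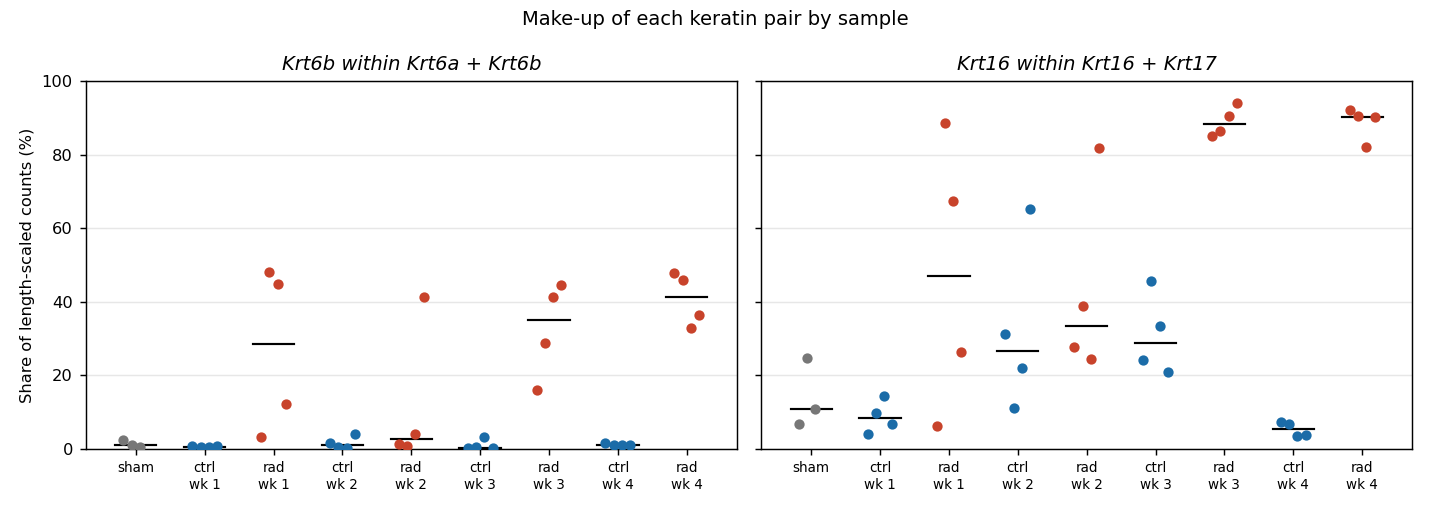
Share of Krt6b in the length-scaled counts of Krt6a and Krt6b (left) and of Krt16 in those of Krt16 and Krt17 (right), in percent, with 1 point per sample and a line at each group's median. In radiated skin of weeks 3 and 4 Krt6b makes up 15.9% to 47.7% of its pair and Krt16 makes up 82.0% to 94.0% of its own.

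Set against the basal keratins Krt5 and Krt14 in the same library, the sum of the 4 genes had a median ratio of 0.907 in radiated skin of week 3 and 1.11 in week 4. The control medians were 0.103 and 0.0685, and the ranges did not overlap in these 2 weeks. The difference in log2 ratio was 1.58, 1.06, 3.17 and 4.07 in weeks 1 to 4. These 4 ratios were tested in 4 weeks by a two-sided exact permutation test of 4 against 4 samples, whose smallest p is 0.0286. In 9 of the 16 tests p was 0.0286, which is 0.0508 after Benjamini-Hochberg adjustment over the 16, so none passed. At this smallest p at least 10 of the 16 would have had to reach it for any to pass. The 9 were Krt6b to Krt6a in weeks 1, 3 and 4, Krt16 to Krt17 and the 4 genes to Krt5 and Krt14 in weeks 3 and 4, and type II to type I in weeks 2 and 4.

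The 4 genes took up 1.08% to 1.43% of all counts of a library in radiated skin of week 4 and 0.506% to 1.54% in week 3. In control skin they took up 0.0423% to 0.0899%, and in sham skin 0.0455% to 0.198%. The summed keratinocyte markers of week 4 were at lower levels in radiated skin, at 14752 to 21461 CPM against 30307 to 33181 in control skin. In week 3 they were at 7243, 13675, 16835 and 31767 CPM in radiated replicates 1 to 4 against 22543 to 29196, so replicate 4 lay above every control sample. The summed neutrophil markers were higher, at 100.5 to 740.1 CPM against 9.13 to 14.2 in week 3 and 204.7 to 435 against 10.2 to 14.4 in week 4, and so were the fibroblast markers in week 4 (18208 to 30901 CPM against 1703 to 3284). Within the neutrophil sum, S100a8 and S100a9 are also activated-keratinocyte genes. Their medians in radiated skin of week 4 were 56.5 and 127.6 CPM, where the whole sum had a median of 363.3. Skeletal muscle markers were lower, with medians of 3544 against 24248 CPM in week 3 and 1309 against 8918 in week 4. The part of these marker shifts in the keratin values was not tested. Members of the keratinocyte sum moved in different directions in week 4, such as Krt14 (2.03) and Krt10 (-2.59). The keratin ratios above are taken within a library and do not depend on its scaling.

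Ranked from the most increased to the most decreased, Krt6b was first of all keratins tested in each week (33, 33, 34 and 35 keratins tested in weeks 1 to 4). Krt16 was 2nd and Krt6a 3rd in weeks 1 to 3, and Krt17 was 7th, 7th and 8th. In weeks 1 and 2, 0 of the 33 keratins passed. The week 2 order leans on radiated replicate 4, without which Krt6b was at 0.89 and Krt16 at -0.21. Some follicle keratins had larger decreases that did not pass, such as Krt71 (-7.47) in week 2. In week 3 the next gene was Krt90 (2.76, adjusted p = 0.0743, and 2.96 and 0.0484 with total-count scaling), and Krt17 stood between Krt8 (0.73, adjusted p = 0.644) and Krt7 (0.60, adjusted p = 0.151). In week 4 Krt16 was 4th, between Krt25 (8.24, adjusted p = 0.00757) and Krt27 (7.83, adjusted p = 0.0105), and Krt71 (8.58, adjusted p = 0.00675) was 2nd. Krt25, Krt27 and Krt71 are keratins of the inner root sheath of growing hair. Krt71 ran from 1.47 to 1334 CPM in radiated and from 0.598 to 1.64 in control skin, so its ranges overlapped, unlike those of Krt16. Krt6a was 8th, between Krt87 (5.08, adjusted p = 0.0267) and Krt28 (4.26, adjusted p = 0.0338). Krt17 was 15th, between Krt20 (0.82, adjusted p = 0.247) and Krt222 (0.58, adjusted p = 0.199). The summed follicle markers in radiated skin of week 4 were 254, 18.8, 5774 and 66.7 CPM, with replicate 3 the highest. Of its group, replicate 3 had the highest Krt17, the second-highest Krt6a and the lowest Krt6b and Krt16. The part of the follicle markers in the keratin values was not tested.

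**Figure D4:**
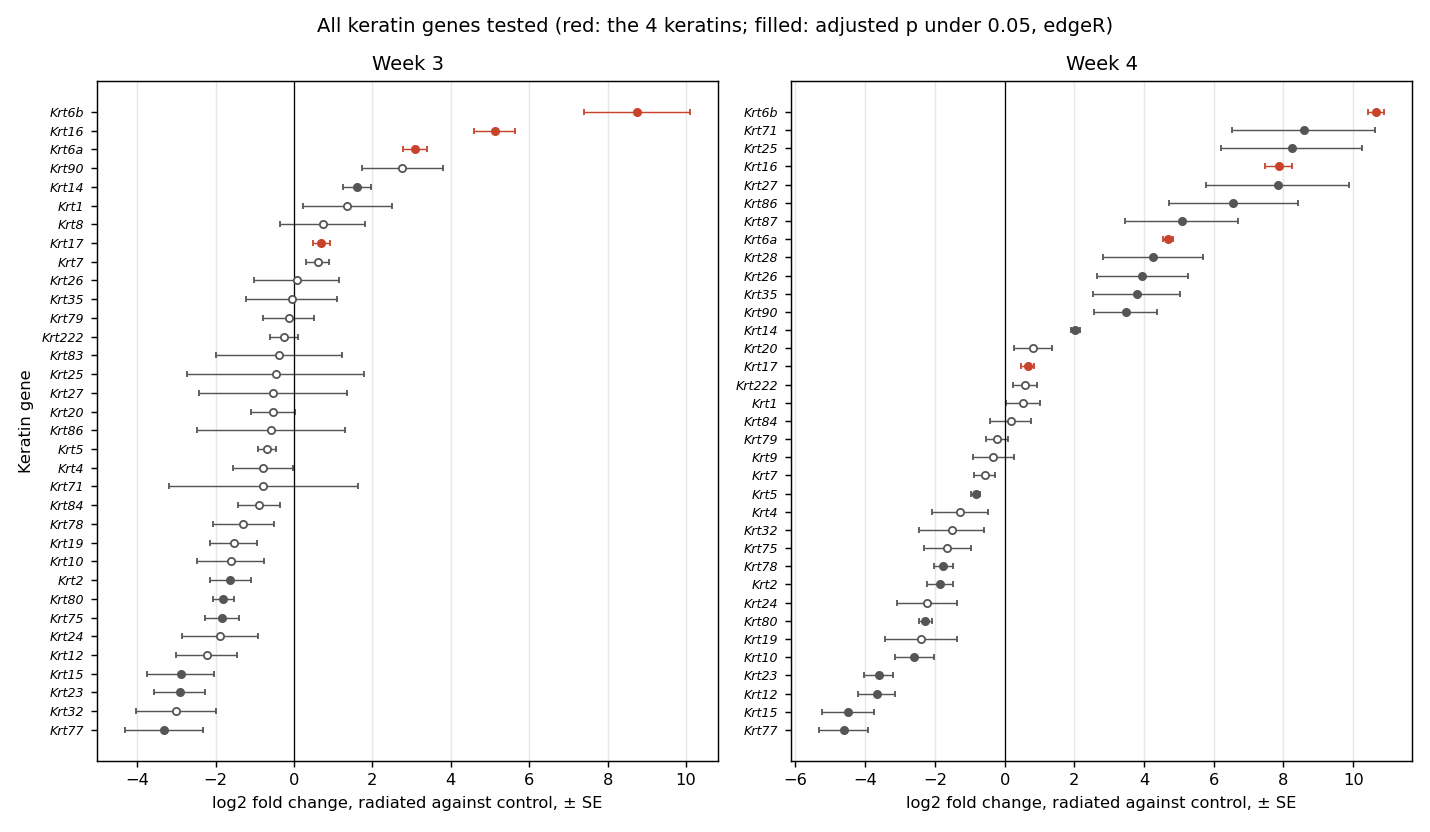
Log2 fold change with its SE of each keratin gene tested in radiated against control skin, for week 3 (left) and week 4 (right), ordered by size, with the 4 keratins in red and filled points at an adjusted p under 0.05 in edgeR. Krt6b leads in both weeks, Krt16 and Krt6a follow it in week 3, and in week 4 they stand among hair keratins with much wider errors.

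The counts of further genes that follow compare radiated with control skin, where 13.6% of all genes rose and 13.6% fell in week 3, and 24.2% rose and 24.2% fell in week 4.

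Of the 7 basal and suprabasal keratins, 1 rose and 3 fell in week 3, and 1 rose and 5 fell in week 4 (1 rose and 2 fell in week 3 with total-count scaling), with 27.2% and 48.4% of all genes passing in either direction. The median log2 changes were -1.61 and -1.85 against 0.08 and 0.02 over all genes. Krt14, the basal type I keratin, rose by 1.61 (adjusted p = 0.00993) and 2.03 (adjusted p = 3.4e-06). Krt14 shares sequence with Krt16, as given above, and with Krt17 (11.8% of its 31-base words). Krt5, its type II partner, was at -0.68 (adjusted p = 0.0519) in week 3 and fell by 0.83 in week 4 (adjusted p = 0.000541). Krt10, the suprabasal type I keratin, fell by 2.59 in week 4 (adjusted p = 0.0038) and was at -1.61 in week 3 (adjusted p = 0.187). Krt77 fell in both weeks (-3.32 and -4.62), and so did Krt15 (-2.89 and -4.48). Krt2, a late suprabasal keratin, was at levels under 4 CPM and fell as well (-1.62 and -1.85), but its week 3 call was lost with total-count scaling (-1.36, adjusted p = 0.0841), and Krt1 did not pass in either week (1.36 and 0.53).

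Other genes of the activated keratinocyte were taken from a list of 20 symbols, of which 17 matched the table. The list named Il1f6 and Il1f8 also by their newer symbols Il36a and Il36b, so it held fewer than 20 genes. Of those tested, 11 of 15 rose and 0 fell in week 3, and 15 of 16 rose and 1 fell in week 4. The filter on low counts kept 9 and 10 of them only through the radiated samples, so that these could hardly come out lower, and they made up 8 of the 11 and 10 of the 15. Of the other 6 genes, 3 rose in week 3 and 5 in week 4, against 13.6% and 24.2% of all genes. Sprr1a and Sprr1b, small proline-rich proteins of the cornified envelope, were at 206 to 806 and 77.7 to 240 CPM in radiated skin of week 4, against 26.8 to 60.7 and 0.0384 to 0.598 in control skin. Sprr1a rose by 2.33 (adjusted p = 0.0212) the week before and by 3.31 (adjusted p = 0.000245) in that week. Sprr1b rose by 7.61 (adjusted p = 0.00191) and 8.66 (adjusted p = 4.01e-06). Itga5, an integrin subunit of migrating keratinocytes, rose by 1.40 and 2.57, and S100a9, an alarmin that neutrophils also carry, was at 7.47 and 7.37. S100a9 in both weeks and Sprr1b in week 4 are among the genes kept only through the radiated samples. Tgm1, the transglutaminase that crosslinks the cornified envelope, rose by 0.73 in week 4 (adjusted p = 0.000818). Ivl, which encodes involucrin of the cornified envelope, was the gene that fell in week 4, by 1.86 (adjusted p = 0.000152). The Sprr and Stfa families have near-identical members, so their single-gene values are less certain.

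Transcription and signalling factors known to act on these keratin genes did not share a direction. Of 17 tested, 1 rose and 7 fell in week 3 (4 rose and 5 fell with total-count scaling), and 6 rose and 9 fell in week 4, where 13.6% and then 24.2% of all genes went each way. Fosb and Fos, immediate early factors of the AP-1 family, fell in week 4 (-4.52 and -3.49), and Fosb fell by 2.30 in week 3. Control samples had 63.4 to 234.3 CPM of Fos in week 3 and 511.5 to 2040.4 in week 4. Radiated samples had 81.8 to 235.9 and 92.65 to 154.1 CPM. For Fosb, control samples had 205.5 to 607.5 and 281.2 to 1538.7 CPM, and radiated samples 48.2 to 178.8 and 22.4 to 76.7. Fosl2, another AP-1 subunit, rose by 0.70 (adjusted p = 0.0209) and then by 0.33 (adjusted p = 0.00491). Trp63, the p63 gene of basal keratinocytes, fell in weeks 3 and 4 (-1.61 and -1.37). Nr3c1, the glucocorticoid receptor, which represses these keratin genes, fell by 0.61 in week 3 (adjusted p = 0.0174, but -0.37 and 0.125 with total-count scaling) and fell by 1.00 in week 4 (adjusted p = 0.000144).

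Of 16 tested genes of the list of cytokines and EGF receptor ligands, 6 rose and 2 fell in week 3, and 9 rose and 1 fell in week 4. Among the risers 4 in each week were kept by the filter only through the radiated samples, and of the rest 2 of 12 and 5 of 11 rose, against 13.6% and 24.2% of all genes. Il1b, an inflammatory cytokine, rose by 4.49 (adjusted p = 0.00164) and 4.68 (adjusted p = 1.8e-05). Areg, an EGF receptor ligand, rose by 1.84 (adjusted p = 0.00541) and 2.22 (adjusted p = 0.000455), and Hbegf, another, rose by 1.52 in week 4 (adjusted p = 0.00126). Tgfa, a further ligand, rose by 0.82 in week 4 (adjusted p = 0.0155). Btc fell in both weeks (-1.75 and -2.71), and Egf fell by 1.38 in week 3 (adjusted p = 0.00301).

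Of 12 partners of keratin filaments in desmosomes and the cell cortex, 1 rose and 3 fell in week 3, and 3 rose and 6 fell in week 4. The share that rose was near or below that of all genes (13.6% and 24.2%). The share that fell, 3 and 6 of 12, was above that of all genes (also 13.6% and 24.2%). Dsp, which anchors keratin filaments at desmosomes, fell by 1.01 in week 4 (adjusted p = 0.000274) and was at -0.92 in week 3 (adjusted p = 0.0809). Ppl (-1.51 and -1.88) and the desmosomal cadherin Dsc3 (-1.16 and -1.15) fell in both weeks. Sfn, the 14-3-3 sigma gene whose protein binds phosphorylated keratin 17, rose by 0.82 in week 4 (adjusted p = 0.00254) and was at -0.38 in week 3 (adjusted p = 0.253). Pkp1, a desmosomal plaque protein, fell by 0.43 in week 4 (adjusted p = 0.00732), and Dsg2 fell by 1.62 in week 3 (adjusted p = 0.00282). Dsc2, another desmosomal cadherin, rose in both weeks (2.11 and 2.65).

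Of the companion layer and follicle genes tested, 0 of 14 rose and 1 fell in week 3, and 8 of 15 rose and 1 fell in week 4, against 24.2% of all genes rising. Of the 8, 3 were kept by the filter only through the radiated samples. The week 4 values were uneven, since replicate 3 held a follicle sum of 5774 CPM and the other samples 18.8 to 254. Krt75, the companion layer keratin that marks the follicle layer where Krt6a and Krt16 are made without injury, was at 4.48 to 22.1 CPM in radiated and 38.9 to 69.2 in control skin in week 3, a fall of 1.83 on the log2 scale (adjusted p = 0.0139). In week 4 it was at -1.64 (adjusted p = 0.0675). Tchh, the trichohyalin gene of the inner root sheath, rose by 5.12 in week 4 (adjusted p = 0.0209) on a range of 15.4 to 3439 CPM, which overlapped with the 18.4 to 30.1 of control skin. Of all keratins other than the 4, 1 of 30 rose and 6 fell in week 3, and 10 of 31 rose and 9 fell in week 4. Of these 10, 3 were kept by the filter only through the radiated samples. Of the rest 7 of 28 rose, near the 24.2% of all genes. Krt80 fell by 1.80 in week 3 (adjusted p = 0.00199). In edgeR's radiated against control comparison no gene of these 7 lists passed in weeks 1 and 2, and none that passed in weeks 3 or 4 changed sign under the other scalings.

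To see which genes had the most similar course, the group means of log2 CPM over the 9 groups were centred and compared among the 12533 genes averaging 5 CPM or more, by the root mean square difference (RMS). Krt16 was nearest to Sprr1b (RMS 0.55), Stfa1 (0.74) and Sprr2d (0.75). Krt6b was nearest to Cstdc5 (1.02), Sprr1b (1.38) and S100a9 (1.41), whose group means spanned 8.78, 8.75 and 8.77 log2 units against 10.96 for Krt6b. Krt6a was nearest to Cyp7b1 (0.37), Cd300ld4 (0.39) and Cd300ld (0.42), and Krt17 to Fchsd1 (0.13), Vangl1 (0.15) and Wnt5b (0.16). Among the 4 keratins the nearest were Krt6a and Krt16 (1.15), ahead of Krt6a and Krt17 (1.35), Krt6b and Krt16 (1.69) and the 2 copies Krt6a and Krt6b (2.63). Krt17 was farthest from Krt6b (3.81). These distances grow with the size of a gene's changes and carry no test.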

How the data were processed

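RNA was measured by bulk sequencing in 35 mouse skin samples. Per the submitters' processing notes, Trim Galore 0.6.7 and kallisto 0.46.2 were used with genome build mm10, and the labels' protocols also name DESeq2. The deposited values are kallisto's estimated counts per gene, not scaled between samples, and 29.5% to 32.5% of a sample's values were not whole. The step from transcripts to genes was not given in the sources used here.

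Rounded counts entered edgeR 4.0.16 under R 4.3.3 (filterByExpr, TMM, quasi-likelihood F test, Benjamini-Hochberg adjustment over all genes), in 1 fit per comparison, and CPM was computed on TMM-scaled libraries over all 35 samples. The SE is the log2 fold change divided by the square root of F. Ratios used counts with 0.5 added. Alternatives were other scaling, no filter, DESeq2 1.42.0, a replicate block, Krt6a and Krt6b added together, 1 fit of all samples, and each sample left out. The code was tested on simulated data.

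Within a week, a radiated and a control sample with the same number were taken as 1 mouse, since 35 samples came from 19 mice. Their deviations from the group means had mean correlations of 0.08, 0.24, 0.08 and -0.02 in weeks 1 to 4 over 16406 genes, against -0.03, -0.08, -0.02 and 0.01 for other numbers. Sham samples come from other mice, and the labels do not say that samples of a group come from separate mice beyond these numbers.

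The members and gene lists were chosen with earlier results of these data known. The other genes named are, for each list and for each of weeks 3 and 4, up to 4 that passed with the highest mean CPM (all genes in lists of up to 7), the keratins next to a member in the ranking, and the 3 genes nearest in pattern. CPM values and log2 fold changes rest on the deposited counts. Promoters and proteins were not analysed here. Sequences and positions come from GENCODE M21 transcripts on GRCm38.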

Additional observations from a re-analysis of the deposited data

Results flagged for a closer look

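A sample was set apart when its gap to the nearest of the other 3, divided by the range of its group of 4, was above Dixon's critical value. Chance flags about 1 in 20 single groups. The 5 cases below, of 32 groups, are not read against that rate, because the 4 genes share their samples and 3 of the cases are 1 library. In radiated skin of week 2, replicate 4 was the highest for Krt6a at 4382 CPM (gap over range 0.949, the others having a median of 437), for Krt6b at 3022 CPM (0.992, median 5.53) and for Krt16 at 5163 CPM (0.986, median 134). Its neutrophil markers summed to 53.5 CPM, the highest of its group. In control skin of week 3, replicate 3 was the highest for Krt6b at 14.8 CPM (0.949, median 0.810). In control skin of week 1, replicate 1 was the highest for Krt17 at 352 CPM (0.879, median 248), and its growing-follicle markers summed to 6642 CPM, the highest of that group.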

How the results depend on the processing

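In weeks 3 and 4 Krt6a, Krt6b and Krt16 kept their rise and their call against control skin in every fit run. Krt17 lost its call in the 1 fit of all 35 samples in weeks 3 and 4 (adjusted p = 0.2), with the replicate block in week 3, and in 7 of 8 fits of week 3 that left out a sample; its change was 0.91 with total-count scaling there, where the median of all genes moved from 0.08 to 0.32 and the share of higher calls from 50.1% to 76.1%. The number of keratins called out of 4 moved as follows. Against control in week 1 it was 0, and 2 with DESeq2 and 1 in the fit of all samples (0 to 3 with a sample left out); in week 2 it was 0, and 1 in the fit of all samples. Against sham in week 1 it was 0, and 1 without the filter, with DESeq2 and in the fit of all samples (0 to 1 with a sample left out); in week 2 it was 0, and 1 in the fit of all samples; in week 3 it was 3 (1 to 3 with a sample left out). Control against sham gave 0 in all weeks, and with DESeq2 2, 1, 1 and 1, in week 3 also 1 with total-count scaling and 1 without the filter (0 to 2, 0 to 1, 0 to 1 and 0 to 3 with a sample left out). The F test over weeks gave 0, and 2 with the replicate block (0 to 2 with a replicate left out). Steps in radiated skin gave 0 (0 to 2 with a replicate left out). The block also moved Krt16 from week 1 to 2 in control skin to an adjusted p of 0.0604, pairing different mice there, and it changed no other call.

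None of the turned directions listed here had passed, and the cause was not tested. In fits against sham, which had 3 samples, the block left out replicate 4 and matched different mice by number. Its values there therefore also reflect the loss of that replicate. With a sample left out, Krt16 against control in week 2 ran from -0.21 to 4.11. Krt17 against sham ran from -0.29 to 0.45, -0.78 to 0.38, -0.56 to 0.16 and -0.19 to 0.56 in weeks 1 to 4. In control against sham, Krt6a ran from -1.42 to 0.13, -0.92 to 0.62 and -0.57 to 0.97 in weeks 1 to 3 (0.42 with the block in week 3). Krt6b ran from -0.98 to 1.47 in week 2 (-0.50 with the copies added, -0.99 with the block) and from -2.19 to 0.99 in week 3 (-0.02 with total-count scaling, -0.14 with the copies added, -0.69 with the block). Krt16 ran from -0.54 to 1.82 in week 2 (-0.09 with the block) and from -0.47 to 1.52 in week 3 (-0.11 with total-count scaling). With a replicate number left out of every week, Krt6b from week 3 to 4 in control skin ran from -1.88 to 0.78. Over all settings, the step from week 1 to 2 in radiated skin ran from -6.97 to 1.38 for Krt6b, -4.37 to 1.60 for Krt16 and -0.95 to 0.43 for Krt17 and reached -1.76 for Krt6a (0.10 without a change of setting), Krt17 from week 2 to 3 ran from -0.52 to 0.42 and Krt16 from week 3 to 4 from -0.15 to 0.57. From week 2 to 3 in control skin, Krt6b ran from -3.06 to 1.37, Krt16 from -0.85 to 0.73 and Krt17 from -0.06 to 0.25. Krt6b in control skin rested on counts as low as 11, which limits its fold changes.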
